A study of Mus musculus with 9 samples.

Results

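Vegfa, Vegfb, Vegfc, Pgf, Flt1, Nrp1, Nrp2, Pdgfa, Pdgfb and Pdgfc were taken by their symbols from the tables of expression values of 9 sorted macrophage samples from mouse lung. They are 10 of the 24346 gene symbols in each table, and each had a value in all 9 samples. The samples were alveolar macrophages (AMs) from mice without a tumor, called Ctrl-AM, AMs from mice bearing a lung tumor, called Tumor-AM, and tumor-associated macrophages from such mice, called Tumor-macrophage, with 3 samples in each group. All mice were C57BL/6 at postnatal week 10 and the labels name no engineered allele. Tumors came from 1 cell line, Lewis lung carcinoma (LLC), which was labelled with the fluorescent protein tdTomato and put into the left lung, while control mice received vehicle. According to the methods, control and tumor-bearing mice were bred separately, so breeding and the presence of a tumor cannot be told apart. All 3 populations were sorted as CD45+ autofluorescent lung cells, the AMs as Siglec-F+ and the tumor-associated macrophages as Siglec-F- F4/80+ CD11b+ cells. Every sample is thus a bulk population taken with the same autofluorescence gate.

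VEGF-A is the main growth factor of blood vessel endothelium, and VEGF-B, VEGF-C and placental growth factor are its relatives. VEGF-A, VEGF-B and placental growth factor bind the receptor tyrosine kinase VEGFR1, the product of Flt1, which also exists as a shortened soluble form that traps ligand. The neuropilins Nrp1 and Nrp2 are co-receptors without kinase activity that bind both VEGF ligands and class 3 semaphorins. PDGF-A, PDGF-B and PDGF-C are growth factors for fibroblasts, pericytes and other mesenchymal cells, and PDGF-C has to be cleaved outside the cell before it binds its receptor. In the lung, macrophages are known as a source of PDGF and VEGF ligands.

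Values are FPKM, in which sequenced fragments are divided by transcript length and by library size, so levels of different genes can be set side by side. Values of a group are given in the order of samples 1, 2 and 3. Depth was estimated to lie between 9.35 and 11.8 M reads per sample (M, 1e6 reads) and exact two-sided permutation tests between the groups gave p = 0.3, 0.2 and 0.2, where 3 samples against 3 cannot go below 0.1. Siglecf, the gene of the sorting marker, ranged from 193 to 209 FPKM over the Ctrl-AM samples, 164 to 183 in the Tumor-AM samples and 0.456 to 0.835 in the Tumor-macrophage samples. The summed level of 7 markers of monocyte-derived macrophages was 24.2 to 29.5 FPKM in the Ctrl-AM samples, 71.2 to 130 in the Tumor-AM samples and 13668 to 14139 in the Tumor-macrophage samples. Sums over markers of other cells also moved between the populations. Lung epithelial markers (7 genes) summed to 124 to 261, 59.7 to 110 and 19.9 to 71.6 FPKM in the order Ctrl-AM, Tumor-AM and Tumor-macrophage, T and B cell markers (5 genes) to 10.9 to 14.9, 4.03 to 8.86 and 19.9 to 40.5, and neutrophil markers (4 genes) to 95.8 to 114, 89.5 to 153 and 59.1 to 94.6. In the same order, pericyte and smooth muscle markers (6 genes) summed to 2.23 to 2.5, 3.45 to 5.33 and 2.22 to 2.34 FPKM. Plasmacytoid dendritic cell markers (5 genes) summed to 89.2 to 103, 132 to 139 and 356 to 411. Of these, Siglech and Ccr9 were at most at 0.659 and 0.26 FPKM. Bst2, Tcf4 and Irf8 were called higher by limma in each of the 3 comparisons, with means of 57, 78.5 and 269 FPKM for Bst2. Single genes weighed on the other sums. The epithelial gene Scgb1a1 was at 169, 5.22 and 2.2 FPKM in Ctrl-AM 1, 2 and 3, and Epcam was called lower in Tumor-AM than in Ctrl-AM (limma, adjusted p = 0.00435). Of the neutrophil markers, S100a9 and Retnlg were called lower there (adjusted p = 0.0173 and 0.0391), while S100a8 was higher but did not pass (adjusted p = 0.0708). The part of these cells in the differences between the populations was not tested.

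The promoters of 3 members are shown as the 250 bases before the annotated start, from the RefSeq promoter table for GRCm38.p6, which held entries for 9 of the 10 members. Vegfa was the member most increased in Tumor-AM, and Flt1 and Pdgfc were the members that fell in Tumor-macrophage. Vegfa is shown for chr17:46032378-46032627 (minus strand), Flt1 for chr5:147726012-147726261 (minus strand) and Pdgfc for chr3:81036166-81036415 (plus strand). No base of these windows lies in an exon of the GENCODE vM21 annotation. Capitals mark a match to the searched letters.
Vegfa: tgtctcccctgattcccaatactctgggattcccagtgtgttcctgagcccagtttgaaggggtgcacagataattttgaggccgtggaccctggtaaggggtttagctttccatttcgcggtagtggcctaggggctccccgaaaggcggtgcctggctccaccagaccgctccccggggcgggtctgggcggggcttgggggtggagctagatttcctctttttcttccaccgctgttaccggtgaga
Flt1: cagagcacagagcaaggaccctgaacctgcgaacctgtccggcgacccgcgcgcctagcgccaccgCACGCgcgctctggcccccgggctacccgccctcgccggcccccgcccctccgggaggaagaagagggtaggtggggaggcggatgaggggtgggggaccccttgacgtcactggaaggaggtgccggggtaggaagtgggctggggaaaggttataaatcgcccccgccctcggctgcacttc
Pdgfc: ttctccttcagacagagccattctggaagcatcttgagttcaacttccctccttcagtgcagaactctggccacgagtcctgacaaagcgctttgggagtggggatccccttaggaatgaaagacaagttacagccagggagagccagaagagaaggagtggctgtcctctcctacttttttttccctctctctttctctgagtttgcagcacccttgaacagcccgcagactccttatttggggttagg
The searched letters were ACGTG and GCGTG, the cores of the hypoxia response element, and TGAGTCA, the AP-1 motif, on both strands. The Vegfa and Pdgfc windows shown held no match, and the Flt1 window held GCGTG on its other strand, 184 bases before the start. A second Vegfa entry, chr17:46025164-46025413, is not printed because 218 of its 250 bases lie in exons. It held ACGTG on its other strand, 211 bases before its start, and GCGTG 218 bases before it. Of 32851 mouse promoters in windows of the same length, 16.6% held ACGTG, 28.2% held GCGTG and 4.46% held TGAGTCA. These letters describe the windows only.

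Among the VEGF ligands, Vegfa rose in AMs of tumor-bearing mice and was higher still in tumor-associated macrophages. Vegfa (chromosome 17, 46016993 to 46032369, minus strand, GRCm38) had values of 0.326, 1.26 and 0.439 FPKM for Ctrl-AM 1, 2 and 3, of 10.4, 3.63 and 6.13 for Tumor-AM 1, 2 and 3, and of 72.4, 44.8 and 82.1 for Tumor-macrophage 1, 2 and 3. The 3 groups did not overlap, and Tumor-AM 2, the lowest of the Tumor-AM samples, still lay above the highest control. The means were 0.673 ± 0.507, 6.71 ± 3.41 and 66.4 ± 19.4 FPKM (SD, n = 3). Vegfa in the Tumor-AM samples stood above that in the Ctrl-AM samples by 2.15 ± 0.33 on the scale of log2(FPKM + 1) (SE, limma, Benjamini-Hochberg adjusted p = 0.00333), a 9.96-fold ratio of means. Without Ctrl-AM 2, the highest control, this ratio was 17.6. Vegfa was rank 33 from the top by size of increase among the 10686 genes tested. It reached 1 FPKM in 1 Ctrl-AM, 3 Tumor-AM and 3 Tumor-macrophage samples. Vegfa thus entered the test through the groups from tumor-bearing mice, where it is high, and either of them alone was enough. With no filter the adjusted p against Ctrl-AM was 0.0167 (limma). Tumor-macrophage exceeded Tumor-AM by 3.18 ± 0.33 (limma, adjusted p = 1.79e-05), a 9.9-fold ratio of means. In bulk samples, a change in the share of cells that make an RNA and a change in the RNA per cell cannot be told apart.

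Markers of monocyte-derived macrophages moved with Vegfa in Tumor-AM. Of the 7 markers on that list, 6 were called higher with a tumor present, against 7.11% of all genes. Ccr2, a chemokine receptor of monocytes, was at 5.83, 3.04 and 3.63 FPKM in Tumor-AM 1, 2 and 3. As a percentage of the Tumor-macrophage mean, Vegfa stood at 15.6, 5.47 and 9.22 in Tumor-AM 1, 2 and 3, and Ccr2 at 15.3, 7.99 and 9.53. The complement genes C1qa, C1qb and C1qc, which made up most of the Tumor-macrophage marker sum, stood at 0.297% to 1.02% of their Tumor-macrophage means in the same samples. Vegfa thus lay far above the level of the complement genes on this scale and near that of Ccr2. The sum of 6 fibroblast markers was also higher, at 3.72 to 6.7 FPKM over the controls and at 19.3, 12.8 and 85.3 in Tumor-AM 1, 2 and 3. Of these markers Lum and Col3a1 were called higher, and Dcn did not pass (limma, adjusted p = 0.0666). Col1a1 and Col1a2 did not rise, with means of 0.579 and 0.556 FPKM in Ctrl-AM and 0.558 and 0.292 in Tumor-AM. The part of other cells in the Vegfa difference was not tested beyond these values.

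**Figure D1:**
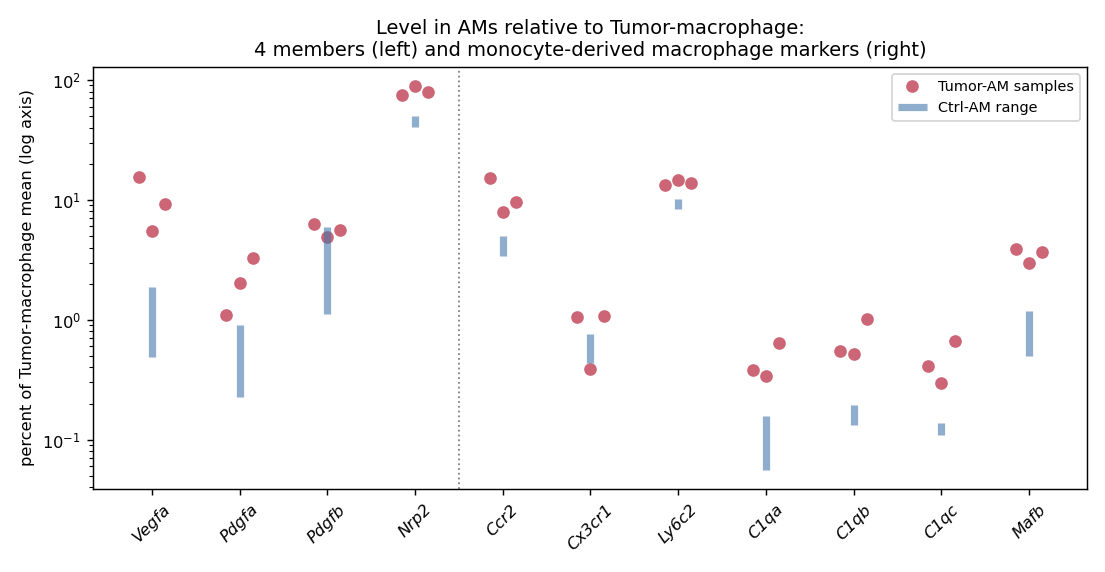
Level of 4 members (left of the dotted line) and 7 markers of monocyte-derived macrophages (right) in AMs, as a percentage of the Tumor-macrophage mean on a log axis, with a point for each Tumor-AM sample and a bar for the range of the 3 Ctrl-AM samples. Vegfa in Tumor-AM lies between 5.47% and 15.6%, beside Ccr2 and above C1qa, C1qb and C1qc, and Nrp2 lies between 75.3% and 89.3%.

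Vegfb, the relative of VEGF-A that binds VEGFR1 and not VEGFR2, was the most abundant VEGF ligand transcript in Ctrl-AM and differed little between groups. Vegfb (chromosome 19, 6982473 to 6987651, minus strand) was at 7.19, 9.25 and 8.77 FPKM in the Ctrl-AM samples, 7.19, 8.77 and 9.39 in the Tumor-AM samples and 12.2, 10.4 and 13.3 in the Tumor-macrophage samples. Both AM groups spanned nearly the same range, and all 3 Tumor-macrophage samples lay above them. Tumor-AM differed from Ctrl-AM by 0.01 (log2, 95% confidence interval -0.29 to 0.30, limma adjusted p = 0.987), and the sign of this difference turned under other scalings (-0.12 as TPM and -0.019 after quantile normalization). Tumor-macrophage exceeded Tumor-AM by 0.46 ± 0.13 (limma, adjusted p = 0.0152) and Ctrl-AM by 0.47 ± 0.13 (adjusted p = 0.0127). Rescaled to TPM, which puts the median change of all genes at -0.21 between Tumor-macrophage and Ctrl-AM, the latter was 0.25 (adjusted p = 0.105). The calls also depended on single libraries: the adjusted p was 0.0615 for Tumor-macrophage against Tumor-AM without Tumor-AM 1 and 0.0594 without Tumor-macrophage 3, and for Tumor-macrophage against Ctrl-AM it was 0.0546 without Ctrl-AM 1 and 0.0506 without Tumor-macrophage 3.

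Vegfc, the ligand of the lymphatic receptor VEGFR3, and Pgf, which encodes placental growth factor, were low throughout and did not reach the 1 FPKM in at least 3 samples that the test required. Vegfc (chromosome 8, 54077606 to 54187096, plus strand) had at most 0.213 FPKM in any sample. Its values came out as whole reads, within 0.05 of a read, and summed to 10 reads in the Ctrl-AM samples, 6 in the Tumor-AM samples and 6 in the Tumor-macrophage samples over 3 samples each (exact Poisson 95% intervals 4.8 to 18.4, 2.2 to 13.1 and 2.2 to 13.1, for counting error only). Any difference in Vegfc was not detectable at this depth. Pgf (chromosome 12, 85166635 to 85177790, minus strand) was at 0.462, 1.68 and 0.877 FPKM in the Ctrl-AM samples, 1.63, 0.301 and 0.207 in the Tumor-AM samples and 0.509, 0.44 and 0.403 in the Tumor-macrophage samples. The 3 groups overlapped for both genes.

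The makeup of the VEGF ligand transcripts moved with these levels. Vegfb gave 90.1%, 74.6% and 85.1% of the summed FPKM of the 4 VEGF ligand genes in Ctrl-AM 1, 2 and 3, and Vegfa gave 4.08%, 10.1% and 4.27%. In Tumor-AM the share of Vegfa was 53.6%, 28.6% and 38.7%, above every control sample, and it exceeded that of Vegfb in Tumor-AM 1 alone. In Tumor-macrophage Vegfa gave 84.9%, 80.4% and 85.6%. The summed level of the ligand genes was 7.98 to 12.4 FPKM in the Ctrl-AM samples, 12.7 to 19.3 in the Tumor-AM samples and 55.7 to 96 in the Tumor-macrophage samples.

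**Figure D2:**
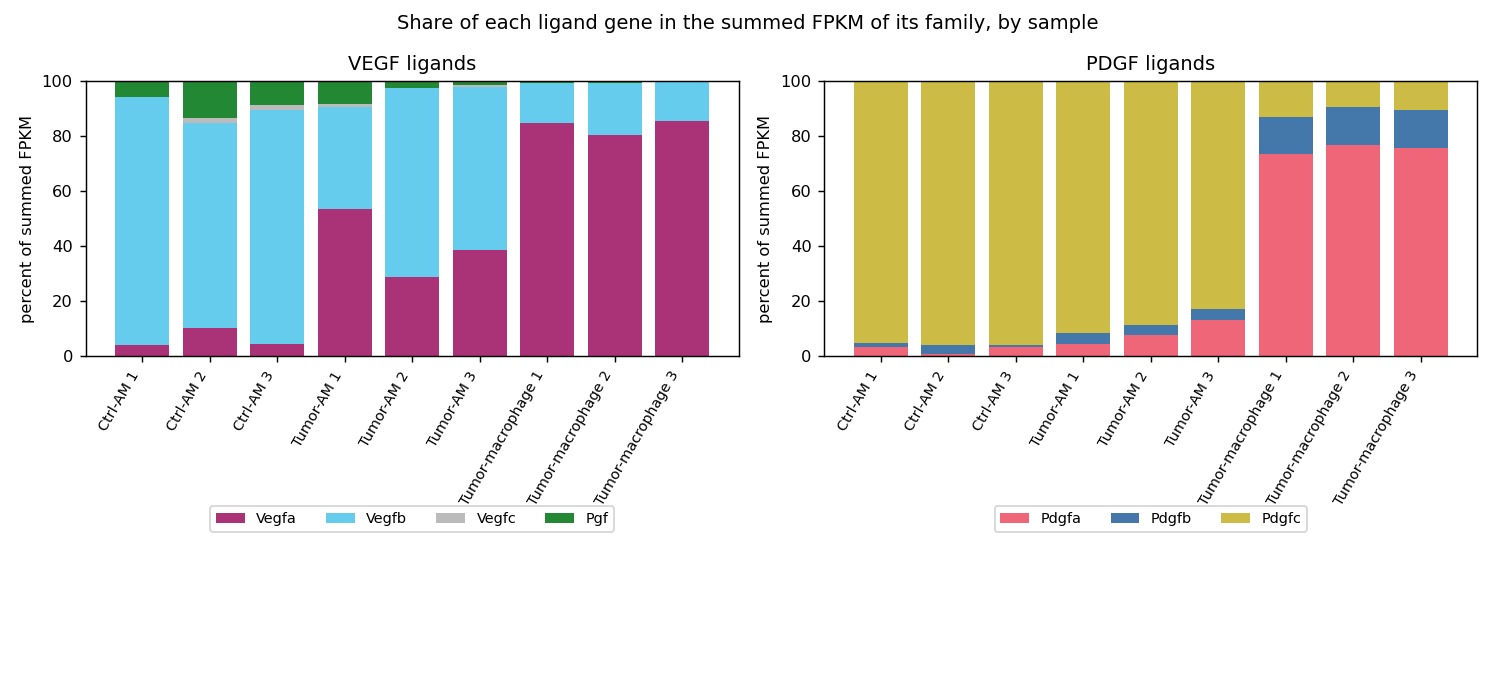
Share of each ligand gene in the summed FPKM of its family, in percent, with a bar for each of the 9 samples, for the VEGF ligands (left) and the PDGF ligands (right). Vegfa takes 28.6% to 53.6% of the VEGF sum in Tumor-AM and 80.4% to 85.6% in Tumor-macrophage, and Pdgfc takes 82.7% to 96.2% of the PDGF sum in both AM groups against 9.46% to 12.9% in Tumor-macrophage.

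Flt1, the gene of VEGFR1, was expressed in AMs and low in tumor-associated macrophages, opposite to Vegfa. Flt1 (chromosome 5, 147561604 to 147726011, minus strand) was at 11.8, 13.4 and 12.6 FPKM in the Ctrl-AM samples, 12.2, 9.1 and 11.3 in the Tumor-AM samples and 0.444, 0.994 and 0.725 in the Tumor-macrophage samples. The AM groups overlapped, and every Tumor-macrophage sample lay below both. The values corresponded to 3095 reads in the Ctrl-AM samples, 2496 in the Tumor-AM samples and 154 in the Tumor-macrophage samples, each over 3 samples (the last with an exact Poisson 95% interval of 131 to 180). Flt1 reached 1 FPKM in 3 Ctrl-AM, 3 Tumor-AM and 0 Tumor-macrophage samples, so it entered the test through the AM groups, where it is high. The difference between Tumor-macrophage and Tumor-AM, a description for this reason, was -2.79 ± 0.15 (log2), with the Tumor-AM mean 15.1-fold higher. Tumor-AM against Ctrl-AM gave -0.20 (log2, 95% confidence interval -0.53 to 0.12, limma adjusted p = 0.445). The tables hold 1 value per symbol, so the full-length and the soluble form of Flt1 could not be separated.

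Flt1 is best known from endothelial cells, whose 9 markers were each at or below 4.02 FPKM in the AM samples. Cdh5, the adhesion molecule of endothelial junctions, ranged from 0.245 to 0.431 FPKM among the Ctrl-AM samples and from 0.0422 to 0.251 among the Tumor-AM samples. Kdr, the gene of VEGFR2, ranged from 0.512 to 0.639 and from 0.0456 to 0.64 FPKM. Both lay far below Flt1 in every AM sample. Vwf, the von Willebrand factor gene, moved with Flt1, at 3.72, 3.79 and 0.955 FPKM in the means of Ctrl-AM, Tumor-AM and Tumor-macrophage. With 0.822, 0.548 and 1.49 FPKM in Tumor-macrophage 1, 2 and 3, it entered the test through the AM groups, where it is high. The difference between Tumor-macrophage and Tumor-AM, a description for this reason, was -1.32 ± 0.17 (log2). Cldn5, a tight junction gene, was at 2.19, 1.57 and 0.683 FPKM and did not pass in that comparison (limma, adjusted p = 0.141). Pecam1 went the other way, at 2.24, 1.63 and 4.94 FPKM (1.16 ± 0.16, adjusted p = 0.000152). The summed level of the 9 markers was 12.9 to 15.8, 6.19 to 12.6 and 5.7 to 12.2 FPKM in the 3 groups. The part of endothelial cells in the Flt1 difference was not tested. The ratio of Flt1 to Vegfa was 36.4, 10.7 and 28.7 in the Ctrl-AM samples and 1.18, 2.5 and 1.85 in the Tumor-AM samples. In Tumor-macrophage Vegfa stood 163, 45 and 113 times above Flt1.

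Of the neuropilins, Nrp2 rose in AMs of tumor-bearing mice and Nrp1 did not pass the test there. The difference between the 2 changes was not tested. Nrp2 (chromosome 1, 62703285 to 62818695, plus strand) was at 8.09, 9.9 and 8.16 FPKM in the Ctrl-AM samples, 14.9, 17.7 and 15.9 in the Tumor-AM samples and 22.2, 19.4 and 18 in the Tumor-macrophage samples. No group overlapped another, although Tumor-AM 2 and Tumor-macrophage 3 were close. Nrp2 in Tumor-AM exceeded Ctrl-AM by 0.83 ± 0.11 (log2, limma adjusted p = 0.00186), a 1.86-fold ratio of means. Tumor-macrophage against Tumor-AM gave 0.28 (95% confidence interval 0.03 to 0.53), which did not pass the test (limma, adjusted p = 0.0666, and 0.0499 without Tumor-AM 2). Tumor-macrophage exceeded Ctrl-AM by 1.10 ± 0.11 (limma, adjusted p = 1.26e-05).

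Nrp1 (chromosome 8, 128358604 to 128503363, plus strand) was at 16.8, 18.5 and 16 FPKM in the Ctrl-AM samples, 18.1, 15.6 and 18.1 in the Tumor-AM samples and 43.3, 28.6 and 38.5 in the Tumor-macrophage samples. Both AM groups overlapped and the tumor-associated macrophages stood above them. Nrp1 in Tumor-AM differed from Ctrl-AM by 0.01 (log2, 95% confidence interval -0.30 to 0.32, limma adjusted p = 0.982), with the sign turning to -0.12 as TPM and to -0.044 after quantile normalization. Tumor-macrophage exceeded Tumor-AM by 1.03 ± 0.14 (limma, adjusted p = 0.00012), a 2.13-fold ratio of means. The ratio of Nrp1 to Nrp2 was 2.08, 1.87 and 1.96 in the Ctrl-AM samples, 1.21, 0.88 and 1.14 in the Tumor-AM samples and 1.95, 1.47 and 2.13 in the Tumor-macrophage samples. This ratio was lower in every Tumor-AM sample than in any other sample. An exon of the microRNA gene Mir1903 lies within Nrp1 on the same strand, and the sources used here do not say how shared reads were assigned.

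Among the PDGF ligands, Pdgfc was the most abundant transcript in AMs and Pdgfa in tumor-associated macrophages. Pdgfa (chromosome 5, 138976014 to 138997370, minus strand) was at 0.302, 0.0881 and 0.352 FPKM in the Ctrl-AM samples, 0.427, 0.788 and 1.26 in the Tumor-AM samples and 36.1, 43.6 and 36.6 in the Tumor-macrophage samples. These values stood for 3, 1 and 4 reads in the Ctrl-AM samples, 4, 8 and 14 in the Tumor-AM samples and 326, 404 and 370 in the Tumor-macrophage samples. Tumor-macrophage lay above every AM sample, and the Tumor-AM samples lay above the controls by little. Pdgfa reached 1 FPKM in all 3 Tumor-macrophage samples and in 1 AM sample, so it entered the test through Tumor-macrophage and that group had to lie high. The difference between Tumor-macrophage and Tumor-AM, a description for this reason, was 4.47 ± 0.17 (log2), a 47-fold ratio of means. Tumor-AM against Ctrl-AM gave 0.53 ± 0.17, which did not pass the test (limma, adjusted p = 0.0854). It passed with a pseudocount of 0.1 (1.41, adjusted p = 0.0494) and without Tumor-AM 1 (0.70, adjusted p = 0.0358). The summed reads, 8 in the Ctrl-AM samples and 26 in the Tumor-AM samples, had exact Poisson 95% intervals of 3.45 to 15.8 and 17 to 38.1.

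Pdgfb (chromosome 15, 79995874 to 80014977, minus strand) was at 0.119, 0.417 and 0.0783 FPKM in the Ctrl-AM samples, 0.443, 0.35 and 0.4 in the Tumor-AM samples and 6.73, 7.77 and 6.74 in the Tumor-macrophage samples. The AM groups overlapped, because Ctrl-AM 2 with 16 reads exceeded the 12 reads of Tumor-AM 2. Pdgfb reached 1 FPKM in Tumor-macrophage alone and entered the test through that group, so that group had to lie above the others. The difference between Tumor-macrophage and Tumor-AM, again a description, was 2.53 ± 0.14 (log2), a 17.8-fold ratio of means. With a pseudocount of 0.1 this difference was 3.85. Tumor-AM against Ctrl-AM gave 0.22 (95% confidence interval -0.08 to 0.53, limma adjusted p = 0.362).

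Platelets carry PDGF, and the sum of 5 platelet markers was 4.44 to 7.76 FPKM in the Ctrl-AM samples, 4.87 to 8.61 in the Tumor-AM samples and 290 to 588 in the Tumor-macrophage samples. Nearly all of it in Tumor-macrophage was the chemokine gene Pf4, at 290 to 583 FPKM. Itga2b, the integrin that defines the platelet lineage, was at 0 in all 3 Tumor-macrophage samples, Gp9 was at 0.145 to 0.664 and Gp1bb at 0 to 0.0548. Ppbp, a platelet chemokine gene, was at 0.309, 5.12 and 1.47 FPKM in Tumor-macrophage 1, 2 and 3 and at most at 0.0837 in Tumor-AM. The part of platelets in the levels of Pdgfa and Pdgfb was not tested. The fibroblast and pericyte receptor genes Pdgfra and Pdgfrb reached at most 1.5 and 0.449 FPKM in any sample.

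Pdgfc (chromosome 3, 81036416 to 81214040, plus strand) was at 8.6, 11.9 and 10.8 FPKM in the Ctrl-AM samples, 9.31, 9.1 and 7.95 in the Tumor-AM samples and 6.36, 5.37 and 5.09 in the Tumor-macrophage samples. The AM groups overlapped, and all Tumor-macrophage samples were below them. Pdgfc fell by 0.57 ± 0.13 on the log2 scale from Tumor-AM to Tumor-macrophage (limma, adjusted p = 0.00467), a 1.57-fold ratio of means. Tumor-AM against Ctrl-AM gave -0.22 (95% confidence interval -0.51 to 0.08, limma adjusted p = 0.361). Pdgfc gave 95.3% to 96.2% of the summed FPKM of the PDGF ligand genes in the Ctrl-AM samples, 82.7% to 91.5% in the Tumor-AM samples and 9.46% to 12.9% in the Tumor-macrophage samples, where Pdgfa gave 73.4% to 76.8%. The sum itself was 9.02 to 12.4 FPKM in the Ctrl-AM samples, 9.61 to 10.2 in the Tumor-AM samples and 48.4 to 56.8 in the Tumor-macrophage samples. Exons of Pdgfa and of Pdgfc are shared with antisense genes of the annotation, and the use of strand in counting is not given in the sources used here.

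**Figure D3:**
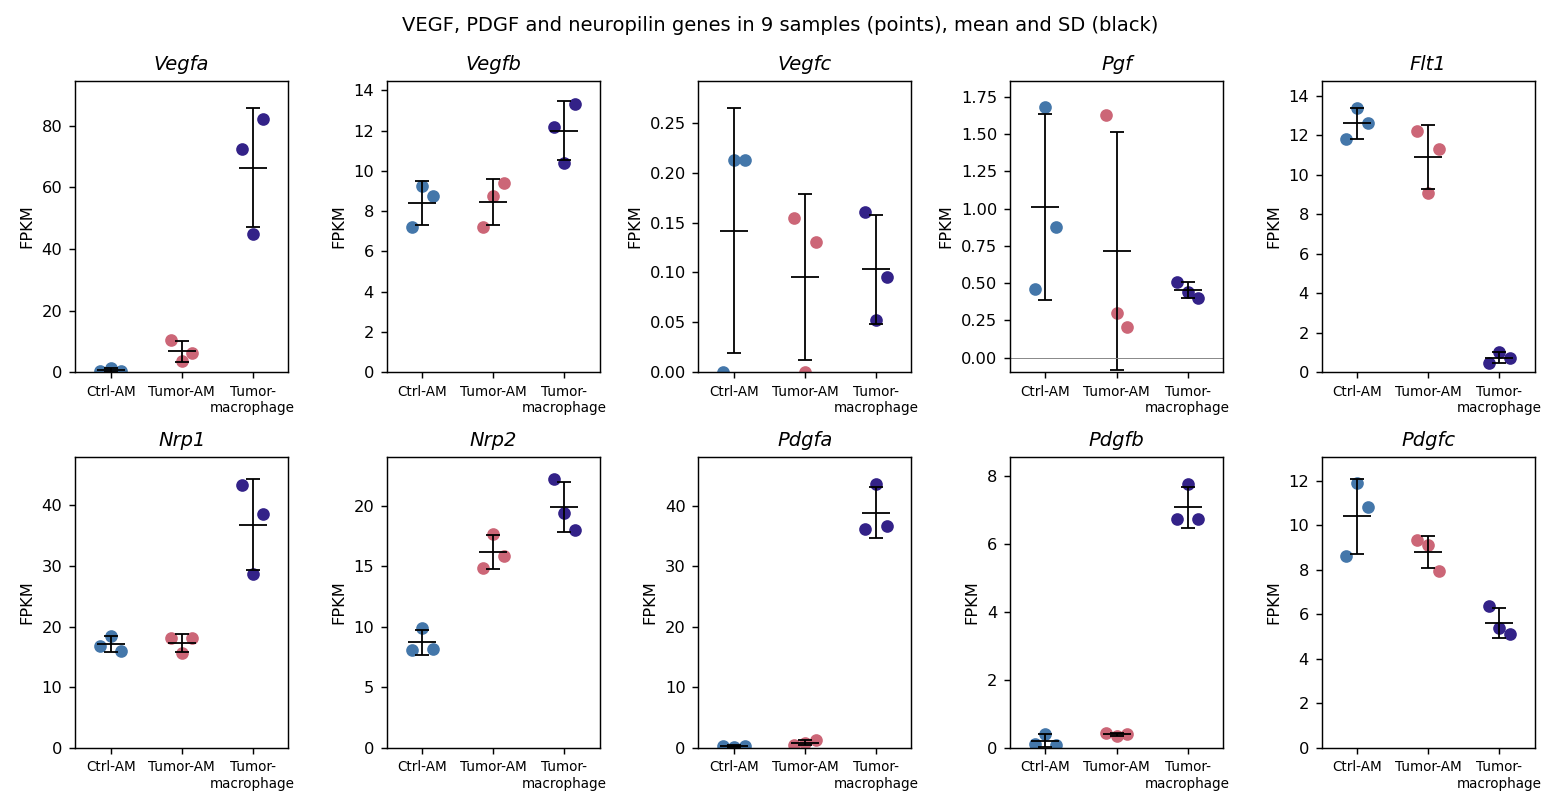
FPKM of the 10 genes in the 9 samples, with a point for each sample and the mean and SD of each group in black; each gene has its own axis. Vegfa climbs from 0.673 to 6.71 and 66.4 FPKM over the group means, Nrp2 from 8.71 to 16.2 and 19.9, and Flt1 drops to 0.721 in Tumor-macrophage alone.

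By level, the order of the genes differed between the populations. In Ctrl-AM Nrp1 was highest with a mean of 17.1 FPKM and did not overlap Flt1 (mean 12.6), while Flt1, Pdgfc, Nrp2 and Vegfb overlapped with their neighbours in the order. In Tumor-AM Nrp1 and Nrp2 overlapped at the top, with means of 17.3 and 16.2 FPKM. In Tumor-macrophage Vegfa (mean 66.4) came first, its lowest sample at 44.8 FPKM just above the highest value of Pdgfa at 43.6, and Pdgfa (38.8) and Nrp1 (36.8) overlapped. Set against the genes tested, Vegfa lay above 4.36% of them for the Ctrl-AM mean, 42% for Tumor-AM and 87.1% for Tumor-macrophage. Flt1 moved the other way, from 57.8% in Ctrl-AM to 3.83% in Tumor-macrophage.

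Counted over the 8 genes that entered the test, 2 were called in Tumor-AM against Ctrl-AM, Vegfa and Nrp2, where 10.3% of all genes tested were called. Both were higher, as were 7.11% of all genes, and 0 were lower, against 3.18% of all genes (limma, with 0 lower at an unadjusted p under 0.05 as well). In Tumor-macrophage against Tumor-AM 7 were called, against 48.6% of all genes. Vegfa, Vegfb, Nrp1, Pdgfa and Pdgfb were higher, against 24.2% of all genes, and Flt1 and Pdgfc were lower, against 24.4%. In Tumor-macrophage against Ctrl-AM 8 were called, against 54.8% of all genes, of which 6 were higher (27.7% of all genes) and 2 lower (27.1%). There the log2 differences were 5.33 ± 0.33 for Vegfa, between 4.61 and 5.38 (95% confidence interval) for Pdgfa, 2.75 ± 0.14 for Pdgfb, 1.04 ± 0.14 for Nrp1, -2.99 ± 0.15 for Flt1 and -0.78 ± 0.13 for Pdgfc, beside those of Vegfb and Nrp2 given with each gene. The groups did not overlap for Vegfa, Nrp2 and Pdgfa in the first comparison, where 32.3% of all genes had groups that did not overlap and 18.9% did so in the higher direction. In the comparisons of Tumor-macrophage with Tumor-AM and with Ctrl-AM they did not overlap for 8 genes each, against 55.3% and 62.3% of all genes. Pdgfa and Pdgfb are among the genes counted although they entered through Tumor-macrophage, where they are high, and Flt1 although it entered through the AM groups, where it is high. The counts against Tumor-macrophage are thus no support for these genes. Vegfa entered through Tumor-AM and Tumor-macrophage, where it is high, and its call in Tumor-AM against Ctrl-AM held with no filter. Vegfc and Pgf were not tested. The comparisons share samples, so their calls are not independent.

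**Figure D4:**
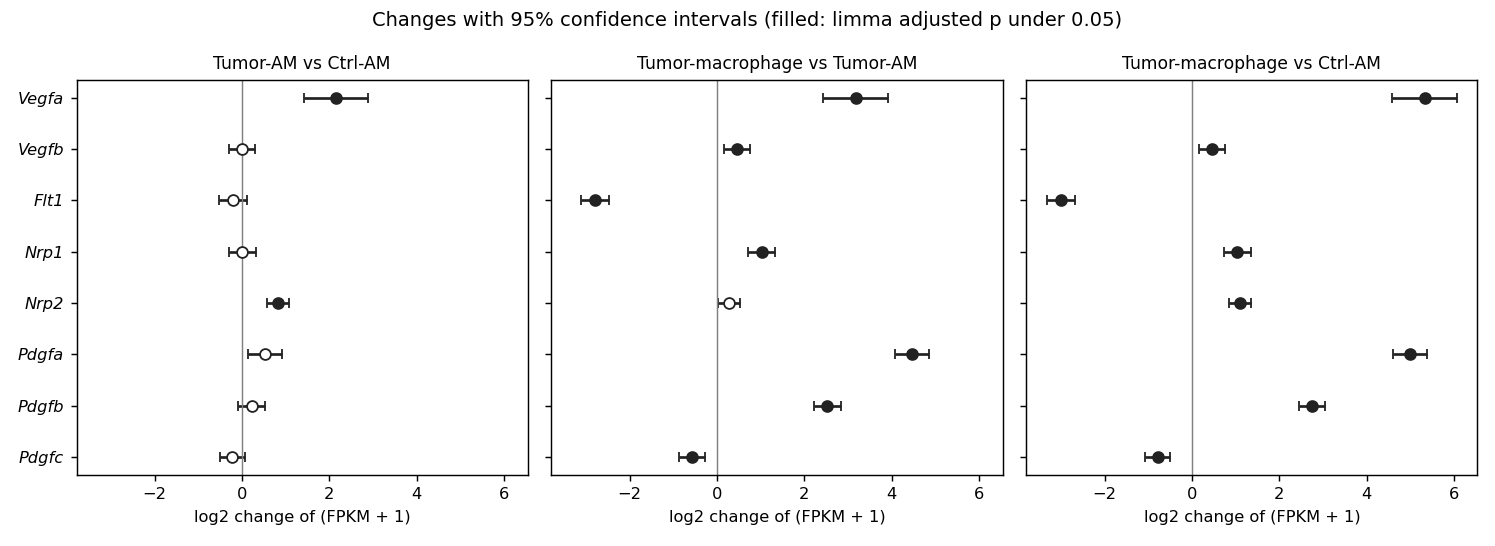
Difference in log2(FPKM + 1) for the 8 genes tested in each comparison, with 95% confidence intervals; filled points have a limma adjusted p under 0.05. Filled points are Vegfa and Nrp2 alone in Tumor-AM against Ctrl-AM, while Flt1 and Pdgfc lie below 0 in both comparisons with Tumor-macrophage.

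The other ligand and receptor genes of both families were low in all 3 populations. Figf (VEGF-D), the VEGF receptor genes Kdr and Flt4, and Pdgfd, Pdgfra, Pdgfrb and Pdgfrl reached at most 1.5 FPKM in any sample, and 0 of these 7 entered the test. Flt1 was thus the receptor gene of the VEGF and PDGF families with a level above 1.5 FPKM. Of 12 plexin and class 3 semaphorin genes 3 entered the test. Plxna1, a plexin that signals together with neuropilins, was at 5.77 ± 1.32, 8.33 ± 0.835 and 13.2 ± 2.33 FPKM in Ctrl-AM, Tumor-AM and Tumor-macrophage (SD, n = 3), and it rose from Tumor-AM to Tumor-macrophage (0.60 ± 0.16, limma adjusted p = 0.00996) but did not pass from Ctrl-AM to Tumor-AM (adjusted p = 0.0884). Sema3e, a semaphorin that repels vessels through Plxnd1, was at 3.27, 2.42 and 0.0218 FPKM.

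Other regulators of vessel growth are given from lists of pathway genes. In the lists of ligands, receptors, plexins, semaphorins, angiopoietins, growth factors and proteases, 14 of 43 genes were tested. Of these, 1 was called higher and 1 lower in Tumor-AM against Ctrl-AM, against 7.11% and 3.18% of all genes. The median log2 change was 0.22 beside 0.01 over all genes tested. In Tumor-macrophage against Tumor-AM 7 were called higher and 5 lower, against 24.2% and 24.4% of all genes. The median there was 0.39 beside 0.00. Hbegf, Plau and Mmp9 among the 7 entered the test through Tumor-macrophage. Sema3e and Fgf1 among the 5 reached 1 FPKM in 0 Tumor-macrophage samples, so they entered through the AM groups, where they are higher. Thbs1, which encodes the vessel growth inhibitor thrombospondin-1, was at 2.6, 2.77 and 3.62 FPKM in the Ctrl-AM samples, 6.27, 7.51 and 5.7 in the Tumor-AM samples and 194, 145 and 199 in the Tumor-macrophage samples. Like Vegfa it rose in both steps, by 0.91 ± 0.15 (limma, adjusted p = 0.0044) and by 4.58 ± 0.15 (adjusted p = 2.98e-09). Angptl4, a secreted lipase inhibitor with roles in vessels, stayed at 185 to 222 FPKM in both AM groups and was at 7.74 to 9.27 in Tumor-macrophage (limma, adjusted p = 9.37e-11 against Tumor-AM). Fgf1, a fibroblast growth factor, was the 1 gene called lower in Tumor-AM (0.624 against 1.81 FPKM). It reached 1 FPKM in 3 Ctrl-AM samples and 1 other sample. Fgf1 thus entered the test through Ctrl-AM, where it is high, and its lower level in Tumor-AM is a description.

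Of the proteases that process these ligands or free them from the matrix, 4 of 9 genes entered the test. By limma 0 were called in Tumor-AM against Ctrl-AM, where 10.3% of all genes were called. Plau, the urokinase gene whose product can activate PDGF-D, was at 0.439 ± 0.175, 0.334 ± 0.246 and 6.22 ± 0.461 FPKM in Ctrl-AM, Tumor-AM and Tumor-macrophage, and Mmp9, a matrix protease, at 0.525 ± 0.152, 0.478 ± 0.247 and 10.3 ± 3.34. Both entered the test through Tumor-macrophage alone, so their higher level there is a description. Furin, the convertase that cleaves several growth factor precursors, fell by 0.74 ± 0.12 on the log2 scale from Tumor-AM to Tumor-macrophage (limma, adjusted p = 0.000587).

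Low oxygen is a known inducer of Vegfa, and genes of that response were followed as 2 lists. Hif1a, the oxygen-regulated subunit of the HIF-1 factor, was at 20.9, 19.8 and 21.5 FPKM in the Ctrl-AM samples, 32.8, 42.4 and 32.6 in the Tumor-AM samples and 72.7, 85.1 and 95.6 in the Tumor-macrophage samples. It rose by 0.75 ± 0.12 from Ctrl-AM to Tumor-AM (limma, adjusted p = 0.00418). Slc2a1, the glucose transporter GLUT1, was at 14.2, 14.9 and 13.3 FPKM in the Ctrl-AM samples, 24.3, 32.9 and 31.4 in the Tumor-AM samples and 52.8, 62.6 and 55.5 in the Tumor-macrophage samples, and it rose by 1.00 ± 0.12 (limma, adjusted p = 0.00079). Within Tumor-AM the genes of these lists did not share 1 order of samples. Tumor-AM 2, the lowest of its group in Vegfa, was the highest in Hif1a and Slc2a1 and the lowest in Mxi1 (23, 17.2 and 23.1 FPKM), Ndrg1 (2.96, 0.684 and 1.52) and Pfkfb3 (6.66, 6.07 and 6.92).

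Of 10 hypoxia-responsive genes, all tested, 2 (Slc2a1 and Mxi1) were called higher and 0 lower in Tumor-AM against Ctrl-AM. Over all genes tested, 7.11% were called higher and 3.18% lower. The median change was 0.27 beside 0.01 over all genes. None of the other 8 passed the test. Their log2 differences were 0.37 for Ldha, 0.31 for Ndrg1, 0.29 for Pfkfb3, 0.25 for Pgk1, 0.11 for Car9, 0.06 for Pfkfb4, -0.16 for Ankrd37 and -0.26 for Bnip3. In Tumor-macrophage against Tumor-AM 6 were called higher and 1 lower, against 24.2% and 24.4% of all genes. The median was 1.02 beside 0.00, and Ankrd37 among the 6 entered the test through Tumor-macrophage. The 1 lower gene was Pfkfb4, a regulator of glycolysis (57.1 ± 5.04 against 16.1 ± 1.76 FPKM). Of 7 tested oxygen-sensing genes, Hif1a and Arnt, its partner subunit, were called higher in Tumor-AM, against 7.11% of all genes.

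The genes most like each member over the 9 samples were found by the Pearson correlation of log2(FPKM + 1) among genes with a mean of at least 10 FPKM, as a description over samples that share 3 groups. Vegfa was nearest to 9030617O03Rik (0.997) and Rcn2 (0.994), and Flt1 to Mob3a (0.999) and Nlrx1 (0.997). Pdgfa was nearest to the complement receptor gene C3ar1 (0.998) and to Aif1 (0.997), a macrophage gene, and Pdgfb to Clec4a1 (0.998) and Ms4a7 (0.996). Nrp1 was nearest to Cd83 and Sp140 (both 0.988), Nrp2 to Arf3 (0.988) and Slc31a2 (0.987), Pdgfc to Med22 (0.990) and Nufip2 (0.975), and Vegfb to Creb5 (0.939) and Pisd-ps1 (0.926).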

How the data were processed

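The deposited values were FPKM, 1 per gene symbol and sample, from libraries made with SMART-Seq HT and Nextera and read single-end. Per the labels, the authors used TopHat2 2.1.1, Bowtie2 and Cuffdiff 2.2.1 with mm10, while the methods name Cufflinks for the FPKM. The annotation and the handling of strand and of shared reads are not given in the sources used here. FPKM do not correct for a few abundant RNAs that take up reads.

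Samples were grouped by their labels. The study names 3 mice per population. Nothing says whether samples with the same number came from the same mouse. Group means of log2(FPKM + 1) were fitted with limma 3.58.1 (R 4.3.3, prior variance with an intensity trend, all 9 samples) for 10686 genes with at least 1 FPKM in at least 3 samples, 2-sided, with Benjamini-Hochberg adjustment over all genes tested and a threshold of 0.05. Because 1 is added before the log, changes of low genes are understated. The fit was tested on simulated data. Depth was estimated from the steps between low values, which for Vegfc, Flt1, Pdgfa and Pdgfb gave whole reads, and intervals on reads cover counting error only. Positions came from GENCODE vM21 (GRCm38, also called mm10), where 95.74% of symbols matched. Python 3.11.15, pandas 2.3.3, numpy 2.4.6, scipy 1.17.1 and matplotlib 3.10.9 were used for the rest.

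All 10 members are named, with the 2 genes most like each member that was tested and genes of the pathway and marker lists. The members and lists were chosen with earlier results of these data known. Alternatives were a pseudocount of 0.1, no filter or a filter at 5 FPKM, TPM, median-ratio scaling, quantile normalization, a constant prior variance, a fit of only the groups compared, a block for the replicate number, and each sample left out in turn.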

Additional observations from a re-analysis of the deposited data

How the results depend on the processing

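The calls of Vegfa and Nrp2 in Tumor-AM against Ctrl-AM held under every alternative run, with limma adjusted p from 0.00189 to 0.0187 and from 0.00153 to 0.0116. Of 438 values of single members under alternatives, 419 were unchanged, 5 no longer passed, 3 newly passed and 11 changed sign. For tested members, unchanged means the same direction and the same side of the threshold. For Vegfc and Pgf, which were not tested in the main fit, it means a log2 change without the filter within the SD of the samples around their group means. The 11 were the near-zero differences of Vegfb and Nrp1 between Tumor-AM and Ctrl-AM. As TPM both were -0.12, and after quantile normalization they were -0.019 and -0.044. Leaving out 1 sample gave -0.09 to 0.11 for Vegfb and -0.035 to 0.076 for Nrp1, including -0.022, -0.066, -0.0013, -0.025 and -0.024. The number of all genes called in Tumor-AM against Ctrl-AM was 1100, and 538 to 1254 when 1 sample was left out (538, 690 and 549 without Ctrl-AM 1, 2 and 3, and 733 and 674 without Tumor-AM 1 and 3). The named members called there stayed at 2, or 3 with Pdgfa. With the replicate number as a block, 2, 7 and 8 members were called in Tumor-AM against Ctrl-AM, Tumor-macrophage against Tumor-AM and Tumor-macrophage against Ctrl-AM, and 938, 5069 and 5772 genes in all. The numbers were not taken as pairs, because deviations of samples with the same number correlated between -0.062 and 0.159, although between Tumor-macrophage and Tumor-AM (0.026 to 0.109) each sample correlated best with its own number. A pseudocount of 0.1 moved low genes most, for Pdgfb from 2.75 to 4.72 between Tumor-macrophage and Ctrl-AM. Depth limits Vegfc, and Pdgfa in Ctrl-AM, to a few reads per sample. Without Ctrl-AM 2 the ratio of the Vegfa means to Ctrl-AM rose from 9.96 to 17.6 in Tumor-AM and from 98.6 to 174 in Tumor-macrophage, and that of Pdgfb in Tumor-macrophage from 34.6 to 71.8, a setting chosen after the data were seen.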
